A study of Mus musculus with 99 samples.

Results

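Canonical PRC1 is the Polycomb complex whose subunits include the genes described here. The 9 genes Cbx2, Cbx6, Cbx7, Cbx8, Phc1, Phc2, Phc3, Pcgf2 and Bmi1 were taken by name from the 55341 gene names of the RNA-seq count table, and all 9 passed the filter on low counts. They were followed over 16 RNA-seq libraries of mouse embryonic stem cells (ESCs) and over the ChIP-seq peak lists of 12 antibodies. With RING1B deleted, Cbx8, Phc2, Bmi1 and Cbx2 rose and Phc1, Cbx7 and Pcgf2 fell, so that the make-up of each subunit family differed from that of untreated cells. With a catalytically dead RING1B 5 of these 7 genes again passed the test in the same direction, and with wild-type RING1B none did.

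Polycomb repressive complex 1 (PRC1) is an E3 ligase that places ubiquitin on histone H2A (H2AK119ub1) through RING1A or RING1B. In its canonical form the RING protein is joined by PCGF2 or BMI1, by a CBX protein whose chromodomain binds H3K27me3, the mark made by PRC2, and by a PHC protein that can self-associate through its SAM domain. Variant PRC1 carries RYBP or YAF2 in place of CBX and PHC, often with another PCGF protein such as PCGF6, and genes of Polycomb subunits can themselves be Polycomb targets.

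All lines were ESCs of 129P2/Ola origin grown on gelatin in serum with 2i and LIF, and carried ROSA26::creERT2. Parental cells were RING1A−/−; RING1B fl/fl, so that 0.5 µM 4-hydroxytamoxifen (OHT) removed RING1B from cells that already lacked RING1A. The WT and I53S lines were Parental cells that stably expressed, from a CAG promoter vector under puromycin selection, 2xFlag-HA-tagged RING1B in its wild-type form or with the catalytically dead I53S substitution; their clones were chosen by Western blot. These and EED fl/fl cells, in which OHT deletes a core subunit of PRC2, were compared after 72 h of OHT (+OHT) or of the EtOH vehicle (−OHT), with 2 RNA-seq libraries for each of the 8 line and treatment groups. MTF2 KO derivatives of the RING1B lines were used for ChIP-seq only. Nothing in the labels says that the replicates were separate clones or cultures, so the p-values measure the spread between these libraries.

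The libraries held 8140106 to 12743460 assigned reads in the RING1B lines and 6957248 to 9443814 in EED fl/fl cells. The EED fl/fl libraries detected more genes (43762 to 46757 against 23578 to 28032), and were fitted apart. Rnf2, the gene of RING1B, stood at 198 and 257 CPM (reads scaled to the library's TMM-normalised size) in the −OHT Parental libraries and at 144 and 167 in the +OHT libraries; the whole-gene count neither separates the deleted exons nor excludes transgene reads. Eed stood at 255 and 173 CPM without OHT and at 67.1 and 43.7 CPM with OHT in EED fl/fl cells. The summed level of 10 pluripotency markers was 5755 to 6756 CPM in −OHT and 3532 to 3617 CPM in +OHT Parental libraries, and 7 of the 10 fell. In I53S cells the sum went from between 5638 and 6702 CPM to between 3782 and 3818 CPM, with 6 of 10 lower by the test, and in WT cells from between 6052 and 7179 CPM to between 5685 and 5827 CPM, with none past the test.

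The sequences just upstream of 4 members are shown first. They are the 3 genes that rose and had a RING1B peak, and Phc1, which fell most without one. They are not the ends of the response, since Phc2 rose more than Bmi1 and Cbx2 (log2 1.78 against 1.36 and 0.79 in Parental cells). Pcgf2, which had a RING1B peak and fell, is not printed either. Each printed sequence is the 250 bases before the first annotated start, 5′ to 3′ on the gene's strand in mm10 (GRCm38.p6), with CG dinucleotides in capitals. The windows are chr11:119040970-119041219 for Cbx8 (minus strand), chr11:119022712-119022961 for Cbx2 (plus), chr2:18676768-18677017 for Bmi1 (plus) and chr6:122340562-122340811 for Phc1 (minus); that of Bmi1 was in the RefSeq promoter table and the others were read from the genome at the GENCODE start.
Cbx8: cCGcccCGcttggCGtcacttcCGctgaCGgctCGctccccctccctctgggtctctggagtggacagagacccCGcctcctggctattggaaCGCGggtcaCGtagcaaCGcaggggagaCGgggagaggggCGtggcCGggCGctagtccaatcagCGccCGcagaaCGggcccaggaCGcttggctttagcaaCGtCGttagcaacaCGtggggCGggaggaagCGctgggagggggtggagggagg
Cbx2: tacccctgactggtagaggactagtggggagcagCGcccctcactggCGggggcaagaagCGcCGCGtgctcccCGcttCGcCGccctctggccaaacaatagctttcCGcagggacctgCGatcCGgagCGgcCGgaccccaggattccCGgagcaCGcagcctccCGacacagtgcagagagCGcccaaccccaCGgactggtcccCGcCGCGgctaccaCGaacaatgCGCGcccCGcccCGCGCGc
Bmi1: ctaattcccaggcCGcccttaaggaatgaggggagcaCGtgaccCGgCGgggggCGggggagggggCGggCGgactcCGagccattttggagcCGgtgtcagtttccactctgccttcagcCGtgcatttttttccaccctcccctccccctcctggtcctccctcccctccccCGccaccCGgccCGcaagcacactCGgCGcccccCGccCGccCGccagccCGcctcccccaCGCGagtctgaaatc
Phc1: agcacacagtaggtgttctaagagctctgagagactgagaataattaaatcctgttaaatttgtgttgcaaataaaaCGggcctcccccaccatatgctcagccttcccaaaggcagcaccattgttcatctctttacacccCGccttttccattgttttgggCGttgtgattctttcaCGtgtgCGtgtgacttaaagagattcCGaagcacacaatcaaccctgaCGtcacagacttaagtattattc

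The upstream windows of Cbx2, Cbx8 and Bmi1 held 28, 24 and 21 CG dinucleotides, and that of Phc1 held 7. Their GC content was 70.8%, 68.8% and 70.4%, against 44% for Phc1. The median over the 32851 RefSeq promoters of the same length was 6 CG dinucleotides. The RefSeq table held 10 entries for 8 of the 9 members. Among the members not printed, Cbx6 and Cbx7 had 20 and 23 CG dinucleotides, Phc3 had 12, Pcgf2 had 5 and the 3 promoters of Phc2 had 13, 1 and 34. The E-box CACGTG, a palindrome searched for after the peaks had been seen, was found before the RefSeq start of 6 of the 9 members in these entries (66.7%: Cbx6, Cbx8, Phc2, Phc3, Pcgf2 and Bmi1), against 6.02% of all RefSeq promoters and 10.1% of the 5896 promoters with at least 20 CG dinucleotides. A member counted once if any of its entries held the motif, while the background counted single promoters. All 250 bases of the Cbx6 entry lay in annotated exon sequence, inside the gene. CACGTG was also in the upstream window of Phc1 printed above, which the RefSeq entry, placed inside the first exon, did not cover. A match is a description of these letters and not a binding site.

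In untreated Parental cells the members spanned a wide range of levels, and each family was led by 1 gene. CPM per kb of merged exon (RPKM), which allow genes to be compared, were 64.7 ± 2.94 (SD, n = 2) for Phc1, 32.2 ± 2.74 for Cbx7 and 13.9 ± 0.71 for Pcgf2. Cbx2, at 7.90 ± 2.01, and Cbx6, at 3.43 ± 0.726, came next. Phc3 was at 1.97 ± 0.183, Phc2 at 1.01 ± 0.168, Bmi1 at 0.734 ± 0.37 and Cbx8 at 0.317 ± 0.116 RPKM. The 2 libraries of neighbouring genes in this order did not overlap except for Phc2 and Bmi1. Thus Cbx7, Phc1 and Pcgf2 were the abundant member of the CBX, PHC and PCGF group, and Cbx8, Phc2 and Bmi1 the least or nearly the least abundant.

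The first question was what the loss of RING1B did to these genes. In Parental cells 7 of the 9 passed the edgeR quasi-likelihood test at an FDR under 0.05, against 34.3% of the 18154 genes tested. Of the members 4 rose and 3 fell, where 21.9% and 12.4% of all genes did so, and 3 members (Cbx8, Phc1 and Phc2) also differed by at least 1.5 on the log2 scale, against 17% of all genes. The median log2 fold change was 0.21 over the members and 0.03 over all genes tested. "Rose" and "fell" below stand for this FDR threshold alone, adjusted by Benjamini-Hochberg over all genes of the fit.

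**Figure D1:**
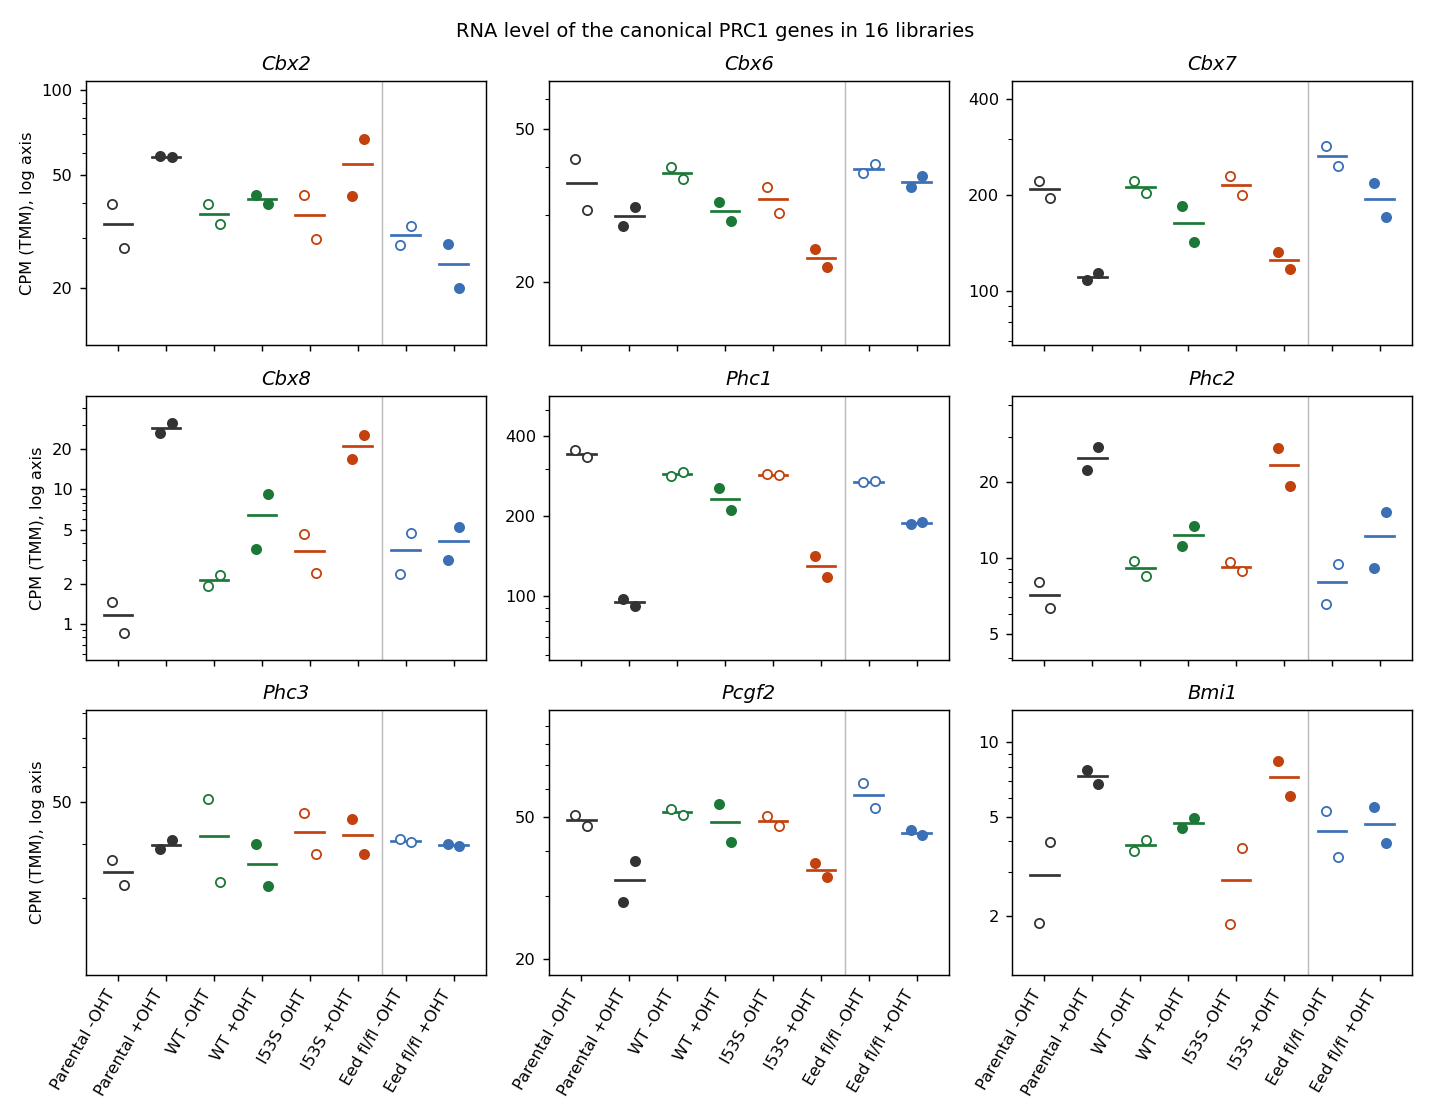
Level of each of the 9 genes in every RNA-seq library, in CPM on a log axis that differs between the 9 panels, with 1 point per library (open −OHT, filled +OHT), a line at each mean and the 8 groups along the x axis. Cbx8 lies between 0.865 and 4.64 CPM in the −OHT libraries of the 3 RING1B lines and between 17.0 and 31.1 CPM in the +OHT Parental and I53S libraries, and Phc1 runs the opposite way.

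Among the CBX genes, Cbx8 showed the largest rise. Its product is a chromodomain subunit that is scarce in ESCs. Cbx8 was at 1.47 and 0.865 CPM in −OHT Parental libraries (18 and 7 reads) and at 26.2 and 31.1 CPM in +OHT libraries (307 and 319 reads). The groups lay far apart, and the fitted fold change was 23.5 (log2 4.55, SE 0.45, edgeR adjusted p = 4.21e-07), which placed Cbx8 475th of 18154 genes by rise.

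Cbx7, the main CBX protein of untreated ESCs, moved the other way. It was at 222 and 196 CPM without OHT and at 108 and 114 CPM with OHT, and fell to 0.532 of its level (log2 −0.91, SE 0.18, edgeR adjusted p = 0.00064). Cbx2, a CBX subunit able to compact chromatin, was at 39.7 and 27.6 CPM without and at 58.7 and 57.9 CPM with OHT. The Cbx2 groups did not overlap, and the fold change was 1.73 (log2 0.79, SE 0.24, edgeR adjusted p = 0.016). Cbx6 shares 5.31% of its exon sequence with Npcd and Cbx7 1.54% with Apobec3, so a small part of their reads is uncertain. For Cbx6, the remaining CBX gene of the 9, the values were 41.8 and 30.9 CPM against 27.9 and 31.4 CPM, ranges that overlapped (log2 −0.30, edgeR adjusted p = 0.292). The Cbx2 call was lost without −OHT replicate 2 (log2 0.52, edgeR adjusted p = 0.212), +OHT replicate 1 (adjusted p = 0.0768) or +OHT replicate 2 (adjusted p = 0.0718), so it needed all of those libraries.

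The PHC genes, which encode the polymerizing subunits, split in the same manner. Phc1 was at 354 and 332 CPM without OHT and at 97.0 and 91.5 CPM with OHT. It fell to 0.275 of its level (log2 −1.86, SE 0.18, edgeR adjusted p = 2.48e-07), the 87th smallest p of all genes and the 245th largest fall. Phc2 was at 7.99 and 6.30 CPM without and at 22.2 and 27.3 CPM with OHT, and rose 3.43-fold (log2 1.78, SE 0.27, edgeR adjusted p = 4.59e-05). Neither gene's groups overlapped. Phc3 was at 36.7 and 32.1 CPM against 38.9 and 40.7 CPM, a difference that did not pass the test (log2 0.21, edgeR adjusted p = 0.511).

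The PCGF pair, the subunits that mark PRC1 as canonical, also moved apart. Pcgf2 was at 50.8 and 47.2 CPM without and at 28.9 and 37.6 CPM with OHT, and fell to 0.678 of its level (log2 −0.56, SE 0.20, edgeR adjusted p = 0.0345). Bmi1, the PCGF paralogue known for repression of the Ink4a locus, was at 1.87 and 3.96 CPM (23 and 32 reads) without OHT and at 7.77 and 6.82 CPM (91 and 70 reads) with OHT, and rose 2.57-fold (log2 1.36, SE 0.41, edgeR adjusted p = 0.0138). The groups were apart for both genes, but each call rested on single libraries. That of Bmi1 was lost without −OHT replicate 1 (log2 0.85, edgeR adjusted p = 0.194) or +OHT replicate 1 (log2 1.26, adjusted p = 0.0819). That of Pcgf2 was lost without −OHT replicate 1 (adjusted p = 0.122), −OHT replicate 2 (adjusted p = 0.0686) or +OHT replicate 1 (log2 −0.38, adjusted p = 0.329), and with scaling by library totals (log2 −0.37, adjusted p = 0.184), no filter (adjusted p = 0.0877) or a minimum of 10 counts in every library (adjusted p = 0.0978).

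The same comparison in WT cells served as the rescue control. None of the 9 members passed the test there, with edgeR adjusted p-values from 0.0671 to 0.874, and 2.21% of all genes did. Cbx8 came closest, at 1.93 and 2.30 CPM (18 and 21 reads) without OHT and at 3.62 and 9.22 CPM (36 and 74 reads) with OHT. Its fold change was 2.98 (log2 1.58, SE 0.44, edgeR adjusted p = 0.0671), and the WT +OHT libraries differed more between themselves than the −OHT libraries did. The call for Cbx8 in WT was gained without WT +OHT replicate 1 (log2 2.11, edgeR adjusted p = 0.0174), with no filter on low counts (adjusted p = 0.00561) and by DESeq2 (adjusted p = 0.0241).

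Phc1 was at 281 and 291 CPM in −OHT and at 254 and 210 CPM in +OHT WT libraries, with a log2 fold change of −0.31. For Phc2 the values were 9.73 and 8.45 CPM against 11.2 and 13.3 CPM (log2 0.43), and for Cbx7 221 and 204 CPM against 185 and 142 CPM (log2 −0.38). The WT groups of Phc1, Phc2 and Cbx7 did not overlap either, but for these genes the gaps were small beside those in Parental cells. Cbx2, Cbx6, Phc3, Pcgf2 and Bmi1 had log2 fold changes of 0.17, −0.33, −0.21, −0.09 and 0.30 in WT cells. The WT groups of Cbx2, Cbx6 and Bmi1 were separate as well, and the Parental log2 fold change of Cbx6 was −0.30. All genes that rose or fell in Parental cells had a WT log2 fold change of the same sign.

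In I53S cells, where the RING1B left after OHT is catalytically dead, 5 of the 9 passed the test, against 26.7% of all genes. Of these Cbx8, Phc2 and Bmi1 rose and Phc1 and Cbx7 fell, where 18.4% of all genes rose and 8.37% fell. Cbx8 was at 4.64 and 2.40 CPM (60 and 25 reads) without and at 17.0 and 25.4 CPM (169 and 295 reads) with OHT, a 5.94-fold rise (log2 2.57, SE 0.39, edgeR adjusted p = 6.68e-05). Phc1 was at 287 and 284 CPM without and at 141 and 118 CPM with OHT, and fell to 0.452 of its level (log2 −1.15, SE 0.17, edgeR adjusted p = 6.37e-05). Neither gene's groups overlapped.

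Phc2 in I53S cells was at 9.58 and 8.83 CPM without and at 27.2 and 19.1 CPM with OHT (log2 1.33, SE 0.26, edgeR adjusted p = 0.000821). Cbx7 was at 229 and 200 CPM without and at 133 and 118 CPM with OHT (log2 −0.78, SE 0.18, edgeR adjusted p = 0.00303). Bmi1 was at 1.85 and 3.74 CPM without and at 8.43 and 6.11 CPM with OHT (log2 1.39, SE 0.40, edgeR adjusted p = 0.0145). All 3 had separate groups, although the Bmi1 call was lost without −OHT replicate 1 (log2 0.94, adjusted p = 0.153) or +OHT replicate 1 (log2 1.15, adjusted p = 0.0904). Cbx2 (log2 0.60, edgeR adjusted p = 0.0718), Cbx6 (−0.51, adjusted p = 0.0815), Pcgf2 (−0.45, adjusted p = 0.0983) and Phc3 (−0.03, adjusted p = 0.949) did not pass. The Cbx2 difference passed without I53S −OHT replicate 1 (log2 0.88, adjusted p = 0.0386) or +OHT replicate 1 (log2 0.90, adjusted p = 0.0123).

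**Figure D2:**
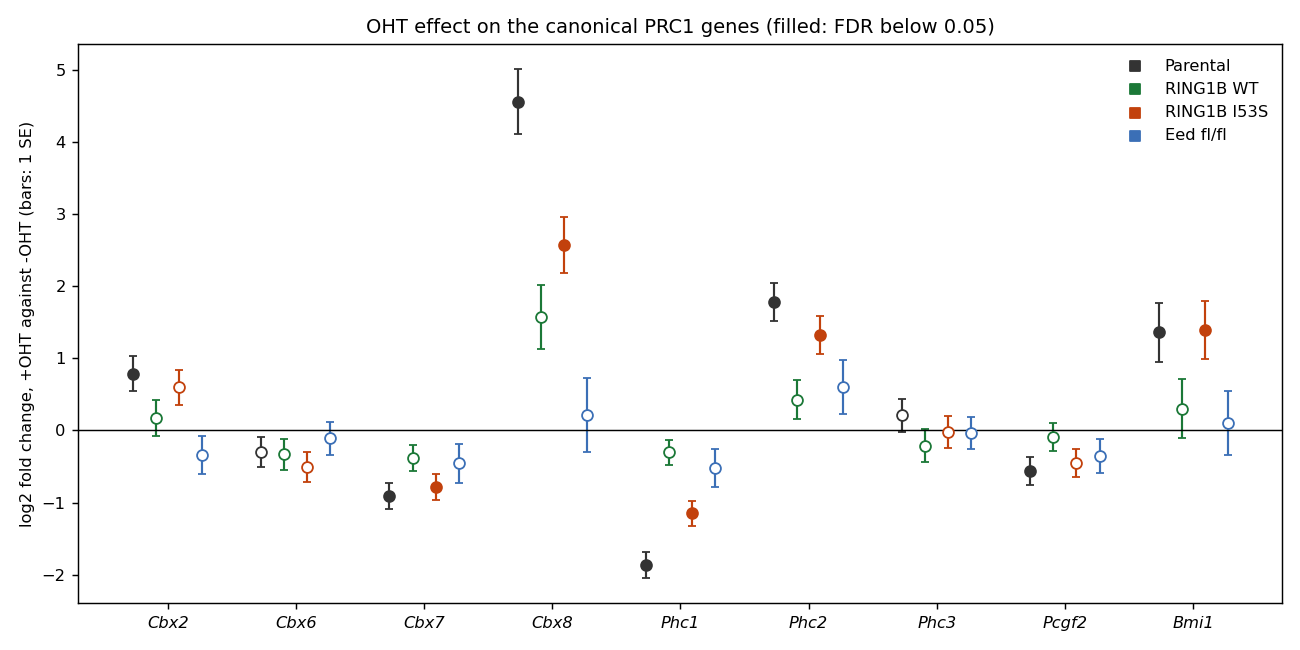
Log2 fold change with OHT (y axis) of each of the 9 genes (x axis) in Parental, WT, I53S and EED fl/fl cells (colours), with error bars of 1 standard error from edgeR, and filled markers where the FDR was under 0.05. Cbx8 reaches 4.55 in Parental and 2.57 in I53S cells, Phc1 goes to −1.86 and −1.15, and no WT or EED fl/fl marker is filled.

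Before OHT the RING1B lines were compared with each other. None of the 9 members passed for WT against Parental (0.0606% of all genes did), I53S against Parental (0.303%) or I53S against WT (0.154%). The largest of these differences was that of Cbx8 between I53S and Parental −OHT cells, at log2 1.55 (edgeR adjusted p = 0.399, unadjusted p = 0.0045). The −OHT libraries of I53S cells, at 4.64 and 2.40 CPM, thus lay above those of Parental cells, at 1.47 and 0.865 CPM, without passing the test.

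After OHT, WT cells differed from Parental cells at 4 members, against 18.1% of all genes. Phc1 was 2.46-fold higher in WT +OHT cells (log2 1.30, SE 0.17, edgeR adjusted p = 5.55e-05) and Cbx7 was also higher (log2 0.56, SE 0.18, adjusted p = 0.0372). Cbx8 stood at 0.221 of the Parental level (log2 −2.18, SE 0.38, edgeR adjusted p = 0.000578) and Phc2 at 0.495 (log2 −1.02, SE 0.26, adjusted p = 0.0101). The Cbx7 call was lost without WT +OHT replicate 1 (log2 0.36, adjusted p = 0.385), Parental +OHT replicate 1 (adjusted p = 0.223) or Parental +OHT replicate 2 (adjusted p = 0.146), and also with library totals (adjusted p = 0.0986), no filter (adjusted p = 0.0799) or a minimum of 10 counts (adjusted p = 0.0723), and that of Phc2 without WT +OHT replicate 1 (adjusted p = 0.128) or Parental +OHT replicate 2 (adjusted p = 0.114).

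Between I53S and Parental cells with OHT, none of the 9 members passed the test, where 0.303% of all genes did. Phc1, at 141 and 118 CPM in I53S and at 97.0 and 91.5 CPM in Parental cells, had a log2 difference of 0.45 (edgeR adjusted p = 0.746) with groups that did not overlap. For Cbx8 the log2 difference was −0.43 (adjusted p = 0.993). The test does not show that these lines were alike.

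Against WT +OHT cells, I53S +OHT cells differed at 3 members, where 13.3% of all genes did. Cbx8 was 3.35-fold higher (log2 1.74, SE 0.37, edgeR adjusted p = 0.00458), Phc2 was 1.89-fold higher (log2 0.92, SE 0.26, adjusted p = 0.0236) and Phc1 stood at 0.557 of the WT level (log2 −0.84, SE 0.17, adjusted p = 0.00319). All 3 calls rested on WT +OHT replicate 1, since without it the edgeR adjusted p-values were 0.112 for Cbx8, 0.206 for Phc2 and 0.0811 for Phc1. The Phc2 call was also lost without WT +OHT replicate 2 (adjusted p = 0.0817) or I53S +OHT replicate 1 (adjusted p = 0.16).

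The difference between the OHT effects was tested as an interaction. Between WT and Parental cells it passed for Cbx8 (log2 −2.98, SE 0.65, edgeR adjusted p = 0.0189) and Phc1 (log2 1.56, SE 0.24, adjusted p = 0.00147), 2 of the 9 members against 2.07% of all genes, and Phc2 came next (log2 −1.35, SE 0.38, adjusted p = 0.07). The Cbx8 difference no longer passed without Parental −OHT replicate 2 (log2 −2.67, adjusted p = 0.0625), Parental +OHT replicate 2 (log2 −2.85, adjusted p = 0.0698), WT −OHT replicate 2 (log2 −2.81, adjusted p = 0.0552) or WT +OHT replicate 1 (log2 −2.43, adjusted p = 0.0841). Between I53S and Parental cells no member passed, nor did any gene (0%) by edgeR or by DESeq2, with 488 genes at an unadjusted edgeR p under 0.05; the values were −1.98 (SE 0.60) for Cbx8 and 0.72 for Phc1 on the log2 scale. Between I53S and WT cells 0.43% of all genes and none of the members passed (Phc1 log2 −0.84, adjusted p = 0.156; Cbx8 log2 0.99, adjusted p = 0.69). The log2 fold changes of Cbx8, Phc1, Phc2 and Cbx7 were thus nearer to 0 in I53S than in Parental cells and that of Bmi1 was not, without a difference that the test could call.

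The EED fl/fl cells, which keep their RING1 proteins and lose EED, addressed whether removal of PRC2 had the same effect on these genes. None of the 9 members passed, and 0.00795% of the 25170 genes did (2 genes by edgeR, with 1372 at an unadjusted p under 0.05). Cbx8 was at 2.34 and 4.78 CPM without and at 2.99 and 5.28 CPM with OHT, ranges that overlapped (log2 0.21). Phc1 was at 268 and 269 CPM without and at 185 and 189 CPM with OHT, and Cbx7 at 284 and 247 CPM against 218 and 170 CPM. Those groups of Phc1 (log2 −0.52, edgeR adjusted p = 0.833) and Cbx7 (log2 −0.45) did not overlap, but neither gene passed the test in this fit. With a replicate block, which pairs libraries by number alone, Phc1 (log2 −0.52, edgeR adjusted p = 0.00109) and Cbx7 (−0.46, adjusted p = 0.00449) fell. The call on these genes thus depended on the pairing. The paper lists 2 EED fl/fl clones, and the labels do not say whether the replicate numbers stand for them. Phc2 was at 6.54 and 9.44 CPM against 9.09 and 15.2 CPM (log2 0.60), ranges that overlapped. A p past the threshold does not show that a gene stayed at its level. Without the block, 0 genes fell by the test in EED fl/fl cells. Eed, the deleted gene, was thus not called either, at 255 and 173 CPM without and 67.1 and 43.7 CPM with OHT.

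**Figure D3:**
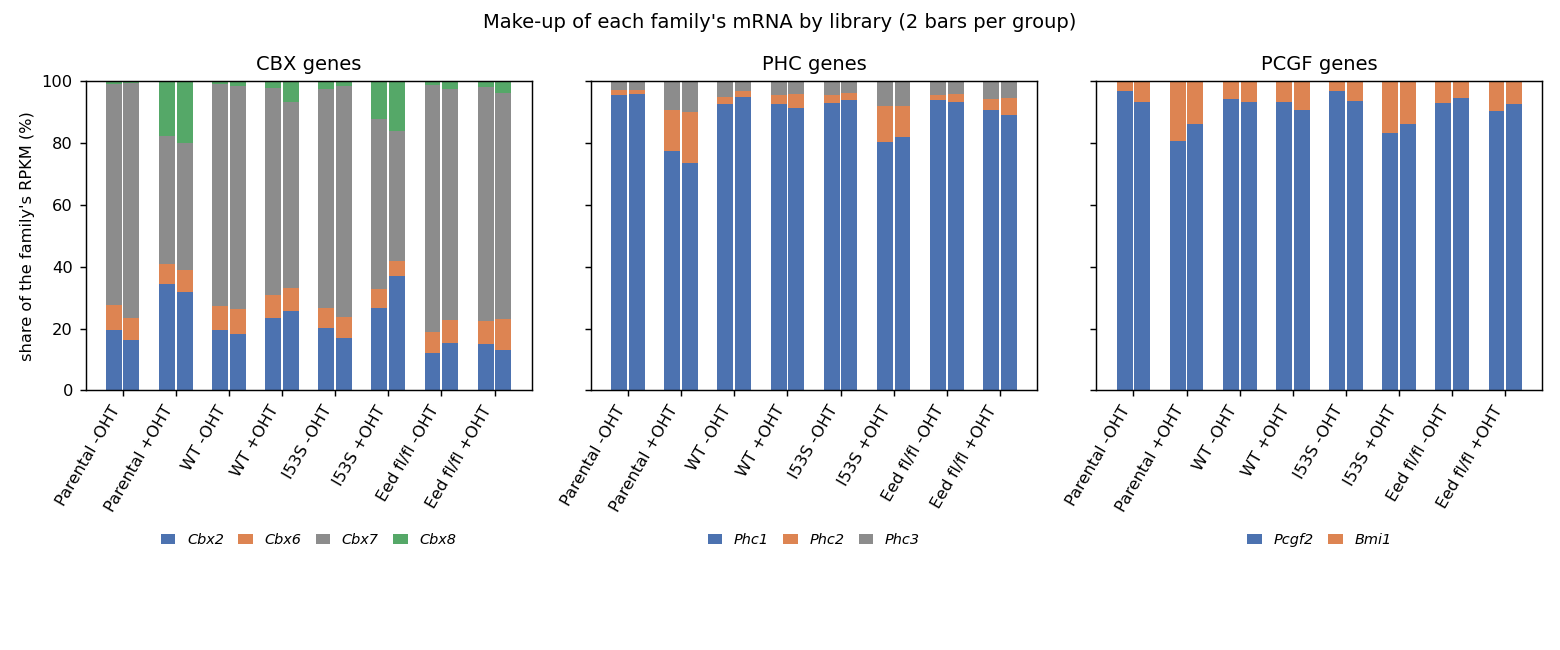
Share of each gene in the summed RPKM of its family (CBX, PHC and PCGF panels), in percent, with 1 stacked bar per library and 2 bars for each of the 8 groups. In Parental cells the mean share of Cbx7 goes from 73.7% to 41.4% of the CBX sum with OHT, Phc1 from 95.6% to 75.5% of the PHC sum and Pcgf2 from 94.95% to 83.4% of the PCGF pair.

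Put as shares of each family's summed RPKM, the transcripts of canonical PRC1 became more mixed in Parental and I53S cells. Among Cbx2, Cbx6, Cbx7 and Cbx8, the share of Cbx7 was 73.7% ± 3.15 (SD, n = 2) in −OHT and 41.4% ± 0.166 in +OHT Parental cells, while that of Cbx8 went from 0.712% ± 0.173 to 18.8% ± 1.51 and that of Cbx2 from 17.9% ± 2.31 to 33.1% ± 1.63. In I53S cells Cbx7 went from 72.7% ± 2.69 to 48.5% ± 8.93 and Cbx8 from 2.05% ± 0.666 to 14.2% ± 2.62. In WT cells Cbx7 went from 71.9% ± 0.526 to 63.5% ± 4.82 and Cbx8 from 1.27% ± 0.245 to 4.60% ± 3.23. Cbx7 therefore remained the first CBX transcript in all 3 lines, with Cbx2 second by exon length. Taken over coding length, Cbx6 was above Cbx2 without OHT, at 10.1% against 7.46% in Parental, 10.5% against 7.92% in WT and 8.98% against 7.83% in I53S cells. With OHT Cbx2 was above Cbx6 by that length too, at 17.6% against 11.2% in Parental, 11.03% against 10.28% in WT and 16.4% against 8.70% in I53S cells.

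Of the PHC sum, Phc1 made up 95.6% ± 0.305 in −OHT and 75.5% ± 2.63 in +OHT Parental cells, and Phc2 went from 1.49% ± 0.176 to 14.9% ± 2.25. The PHC sum itself fell, from 70.1 and 65.4 RPKM in −OHT to 23.7 and 23.5 RPKM in +OHT Parental libraries. The CBX sum was at 47.8 and 39.9 RPKM without and at 40.2 and 42.6 RPKM with OHT. A larger PHC share is thus not a larger level. That of Phc3 went from 2.90% to 9.67%, although Phc3 did not pass the test. In I53S cells the share of Phc1 went from 93.5% ± 0.696 to 81.2% ± 1.10, and in WT cells from 93.6% to 92.0%. Bmi1 made up 5.05% ± 2.65 of the PCGF pair in −OHT and 16.6% ± 3.83 in +OHT Parental cells, and 4.88% ± 2.41 and 15.3% ± 2.11 in I53S cells, but 6.21% and 8.16% in WT cells. Most of the PHC and PCGF sums were still Phc1 and Pcgf2 after OHT. With 2 libraries against 2 an exact permutation test cannot give a p below 0.333, and none was made on the shares. Taken over coding length in place of exon length, the shares of Cbx7 in Parental cells were 82.0% and 58.8%, those of Cbx8 0.368% and 12.4%, and those of Phc1 88.9% and 57.7%.

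Markers of other cell types moved in the same comparisons. The summed level of 6 primitive endoderm markers was 2.36 to 2.47 CPM in −OHT Parental libraries, with Gata6, Sox7 and Foxa2 at 0, and 33.5 to 34.4 CPM with OHT, and all 6 rose. In I53S cells it went from 2.40 to 3.94 CPM to between 25.7 and 28.9 CPM, also with all 6 higher by the test, and in WT cells from 2.19 to 3.32 CPM to between 5.64 and 9.09 CPM, with none. Of the trophoblast markers 3 of the 5 tested rose in Parental cells (summed level of all 6 from 165 to 196 CPM to between 364 and 370 CPM), 3 in I53S and 2 in WT cells. Of 8 fibroblast markers, 4 could be tested and rose in Parental and I53S cells (from 23.5 to 24.0 CPM to between 66.2 and 68.8 CPM in Parental cells), while Col3a1, Dcn and Lum were at 0 in all Parental libraries. In bulk RNA, fewer cells of a type and less RNA per cell cannot be told apart, and the part of these markers in the results on the members was not tested.

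The other genes of the 2 Polycomb complexes were taken from lists. Among the other canonical PRC1 genes, Scml2, a Scm-like Polycomb protein, rose in Parental (log2 1.16, SE 0.32, edgeR adjusted p = 0.00784) and I53S cells (log2 1.14, SE 0.33, edgeR adjusted p = 0.0146), and Rnf2 fell in Parental cells.

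Of 25 variant PRC1 genes, 3 rose and 8 fell in Parental cells (median log2 −0.34), where 21.9% of all genes rose and 12.4% fell. In I53S cells 4 of the 25 rose and 6 fell, where 18.4% and 8.37% of all genes did so. The 3 that rose in Parental cells were Pcgf5 (6.68 to 25.4 CPM in mean), a PCGF subunit of variant PRC1, Bcor (46.7 to 134 CPM) and Bcorl1 (10.0 to 42.3 CPM), the BCOR corepressors of the PCGF1 complex. The 8 that fell were Kdm2b, L3mbtl2, Mga, Max, Fbrsl1, Usp7, Hdac1 and Csnk2a1. Of 13 PRC2 genes, Phf19 rose (2.17 to 7.36 CPM in mean) and Eed, Mtf2, Jarid2 and Epop fell in Parental cells, and 1 rose and 3 fell in I53S cells, beside the same shares of all genes. No gene named here passed the test in WT or EED fl/fl cells, and in EED fl/fl cells that includes Eed, the deleted gene.

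Over the 12 libraries of the RING1B lines, the genes whose log2 CPM followed a member most closely were named by Pearson's r as a description, since all points share the same 6 groups. They were Slc10a4 (r = 0.988) and Rbp4 (0.986) for Cbx8, Vwa5b2 (0.989) and Fstl4 (0.986) for Phc2, and Sept1 (0.988) and L1td1 (0.986) for Phc1. The genes named for Cbx8 and Phc2 rose and those for Phc1 fell in Parental cells. This follows from their choice by r over libraries that include the Parental ones, and is no separate result.

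The ChIP-seq data consisted of peak lists, with 1 library per antibody and condition except for MTF2 and JARID2 in +OHT WT and I53S cells, so differences between lists had no replicate check and no test. A gene was counted when a peak of at least 1 bp overlapped the span from 2.5 kb before to 2.5 kb after it. The score of a peak is its −log10 p from MACS2, with 10 as the lowest in the lists, and it varies with the depth of each library. The Drosophila spike-in scaling is not in the lists, so a peak present with and without OHT says nothing of how the amounts compare.

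**Figure D4:**
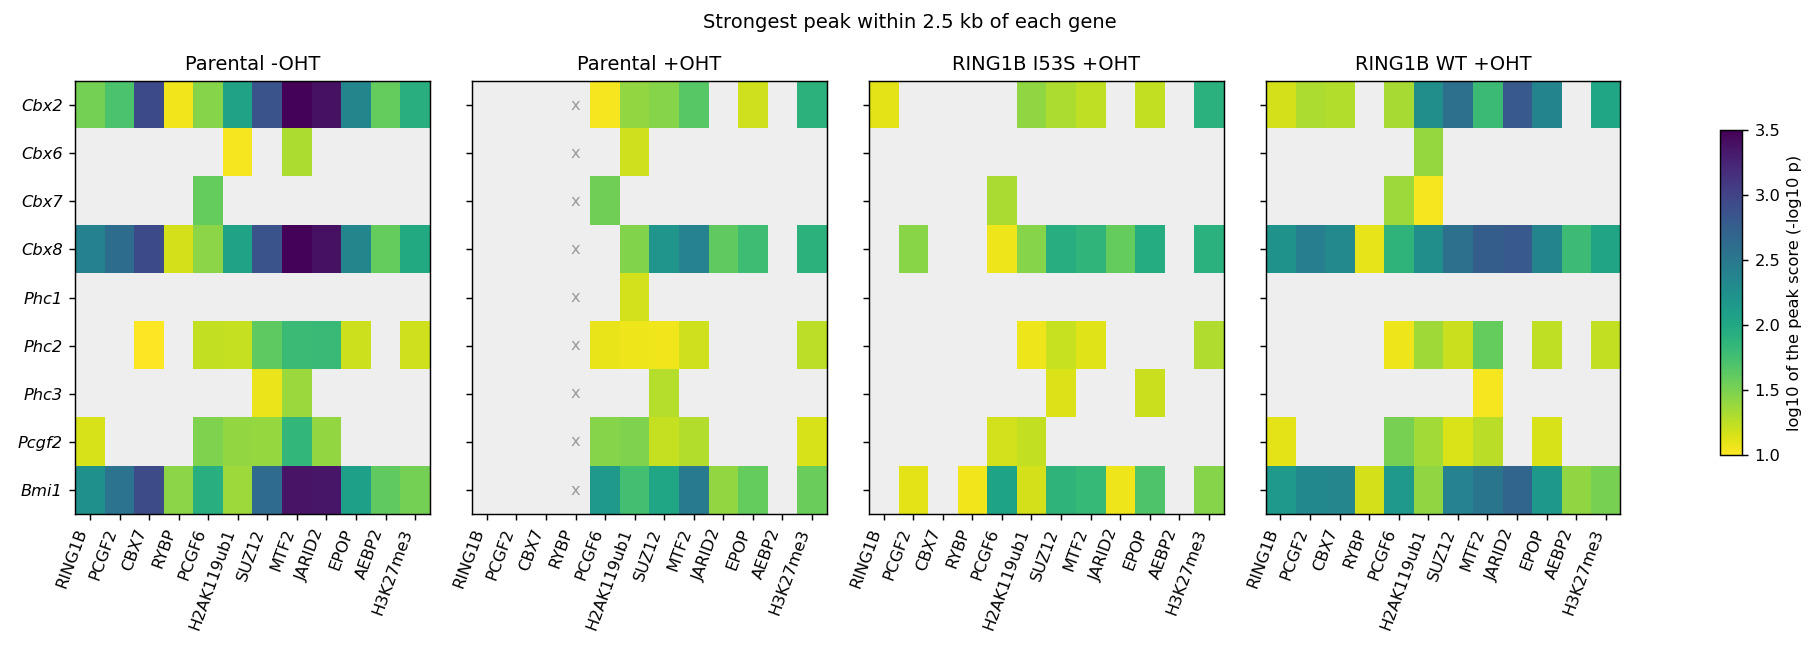
Highest peak within 2.5 kb of each of the 9 genes (y axis) for 12 antibodies (x axis) in 4 panels, Parental −OHT, Parental +OHT, I53S +OHT and WT +OHT cells, 1 library each, coloured by the log10 of its score (−log10 p); grey cells hold no peak and crosses mark a list that was not used here. Cbx2, Cbx8 and Bmi1 carry peaks of all 12 antibodies in Parental −OHT cells, and the high scores of several antibodies at Cbx2 belong to a peak shared with Cbx8.

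RING1B peaks lay at 4 of the 9 members in Parental −OHT cells (Cbx2, Cbx8, Pcgf2 and Bmi1), against 10.4% of all gene names. None of the members kept one in Parental +OHT cells (1.14% of gene names), 1 had one in I53S +OHT cells (Cbx2; 2.13%) and the same 4 had one in WT +OHT cells (8.03%). As a share of the 9 genes, 4 is 44.4% (95% Wilson interval 18.9% to 73.3%, which covers counting error only) and 0 allows up to 29.9%. Gene names without any transcript in ESCs count in the background shares. For PCGF2, the product of one of the members, peaks were at Cbx2, Cbx8 and Bmi1 in Parental −OHT cells (10.3% of gene names), at none in Parental +OHT cells (0.255%), at Cbx8 and Bmi1 in I53S +OHT cells (1.47%) and at 3 members in WT +OHT cells (7.63%). For CBX7, another member's product, they were at Cbx2, Cbx8, Phc2 and Bmi1 in Parental −OHT cells (10.4%), at none in Parental +OHT (0.155%) or I53S +OHT cells (0.0867%), and at 3 members in WT +OHT cells (5.48%). Peaks of RING1B, PCGF2 or CBX7 thus lay at 5 of the 9 members in untreated cells, at none in Parental +OHT cells and at 3 in I53S +OHT cells. Pcgf2 in untreated cells and Cbx2 in I53S +OHT cells counted through RING1B alone, which variant PRC1 also carries. Phc2 counted through CBX7 alone.

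Among genes with a RING1B peak in Parental −OHT cells, 56.6% rose with OHT (2220 of 3923 tested, and 163 fell), with a median log2 fold change of 1.36. The 4 members with such a peak comprised 3 that rose, Cbx2, Cbx8 and Bmi1, and 1 that fell, Pcgf2. The 5 members without one comprised Phc2, which rose, Phc1 and Cbx7, which fell, and Cbx6 and Phc3, which did not pass. Over the 14231 tested genes without a RING1B peak, 1758 rose and 2087 fell. Both of the largest falls and 1 of the 4 rises among the members thus lay outside the RING1B peaks.

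The variant PRC1 subunits gave a different picture. RYBP peaks were at 3 members in Parental −OHT cells (6.72% of gene names), at Bmi1 in I53S +OHT cells (1.84%) and at Cbx8 and Bmi1 in WT +OHT cells (2.75%); the Parental +OHT list was not used here. PCGF6 peaks were at 6 members in Parental −OHT cells (Cbx2, Cbx7, Cbx8, Phc2, Pcgf2 and Bmi1; 16.1%), at 5 of these, without Cbx8, in Parental +OHT cells (10.9%), at Cbx7, Cbx8, Pcgf2 and Bmi1 in I53S +OHT cells (5.79%) and at all 6 in WT +OHT cells (15.1%). H2AK119ub1 peaks were listed at 6 members in Parental −OHT cells (14.5%), 7 in Parental +OHT (11.6%), 5 in I53S +OHT (6.62%) and 7 in WT +OHT cells (17.4%). Peaks of PCGF6 and H2AK119ub1 were therefore still listed at some members where RING1B or its activity had been removed, but in I53S +OHT cells a score of at least 20 left each at 2, and PCGF6 was within 2.5 kb of a start at 1. The paper reports that H2AK119ub1 was lost at all PRC1 targets in I53S +OHT cells, by ChIP-seq scaled to the spike-in. The peaks listed here carry no such scaling and do not show that the mark remained.

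The PRC2 subunits were also listed at the members. SUZ12, a core subunit, had peaks at 6 members in Parental −OHT cells (Cbx2, Cbx8, Phc2, Phc3, Pcgf2 and Bmi1; 17.1% of gene names), 6 in Parental +OHT (12.1%), 5 in I53S +OHT (7.52%) and 5 in WT +OHT cells (14%). MTF2, an accessory subunit of PRC2.1, had peaks at 7, 5, 4 and 6 members in the same order (31%, 14.7%, 6.67% and 16.4%). The second MTF2 library of I53S +OHT cells had peaks at 6 members and that of WT +OHT cells at 5, against 14.7% and 15% of gene names, so the 2 I53S libraries differed. EPOP, also of PRC2.1, had peaks at 4, 3, 4 and 5 members (14.3%, 6.02%, 6.56% and 14.3%). JARID2 and AEBP2 mark the PRC2.2 form. JARID2 had peaks at 5, 2, 2 and 3 members (19.9%, 3.02%, 2.39% and 11.1%), with 1 and 4 in the second libraries of I53S and WT +OHT cells, and AEBP2 at 3, 0, 0 and 2 members (2.61%, 0.0307%, 0.0723% and 2.82%). H3K27me3 itself was listed at 4, 5, 4 and 4 members (17.9%, 14.5%, 14.4% and 17.9%). Of the PRC2 lists, AEBP2 was thus the one with no member left in Parental and I53S cells after OHT.

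MTF2 KO cells had lists for SUZ12 and H3K27me3. SUZ12 peaks were at 3 members in Parental −OHT (6.79% of gene names), 3 in Parental +OHT (3.03%), 2 in I53S +OHT (1.26%) and 3 in WT +OHT cells (7.61%). H3K27me3 peaks were at 4, 1, 2 and 4 members in the same order (7.77%, 0.533%, 2.41% and 4.53%). Cbx8 and Bmi1 were in all 4 SUZ12 lists, and Cbx8 alone was in the H3K27me3 list of Parental MTF2 KO cells with OHT. The 4 input lists of MTF2 KO cells held between 9 and 19 peaks, none at a member.

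The Cbx8 gene lay in the longest RING1B peak of untreated Parental cells. Cbx8 occupies chr11:119036305-119040969 on the minus strand, 5034 bp from the end of Cbx2 (chr11:119022962-119031270, plus strand). The RING1B peak chr11:119034053-119060582 spans 26530 bp, from −19613 bp (upstream) to 6916 bp relative to the Cbx8 start and so past the end of the gene, with a score of 252. It ranked first of 5073 peaks by length and 45th by score. Peaks of PCGF2 (26537 bp, score 415), CBX7 (26826 bp, score 861), SUZ12 (27272 bp, score 730) and EPOP (27337 bp, score 227) had nearly the same length, and those of MTF2 (35864 bp, score 2962) and JARID2 (36092 bp, score 2456) were longer.

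Within these 26530 bp the lists differed by complex. RING1B peaks covered 100% in Parental −OHT cells by definition, since this peak set the domain. They covered 0% in Parental +OHT, 0% in I53S +OHT and 91.4% in WT +OHT cells. In that order PCGF2 covered 99.2%, 0%, 23.9% and 97.0%, CBX7 99.9%, 0%, 0% and 94.6%, and AEBP2 93.0%, 0%, 0% and 87.0%. SUZ12 covered 100%, 62.9%, 48.2% and 100%, and H3K27me3 98.5%, 78.4%, 76.0% and 98.2%. The PRC2 core and its mark thus kept peaks over much of the domain where those of canonical PRC1 were gone or, for PCGF2 in I53S cells, reduced to pieces.

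Of the other accessory subunits of PRC2, MTF2 covered 100% and 73.4% in Parental −OHT and +OHT cells, 56.9% and 77.1% in the 2 libraries of I53S +OHT cells and 99.4% and 99.8% in those of WT +OHT cells. For JARID2 the values were 100% and 23.5%, then 16.1% and 18.8% in I53S and 99.8% and 99.4% in WT cells. EPOP covered 100%, 59.7%, 66.7% and 100% in the 4 conditions. Without OHT, JARID2 covered 99.98% in I53S and 100% in WT cells, and MTF2 99.8% and 99.4%. JARID2 thus kept the smaller part of the domain after OHT, in both I53S libraries. The other antibodies had no −OHT list of I53S or WT cells. Their differences from Parental −OHT cells therefore mix line and OHT. In the same 4 conditions H2AK119ub1 peaks covered 98.2%, 61.3%, 59.1% and 100%, and PCGF6 peaks 50.4%, 13.9%, 11.4% and 69.1%. The H2AK119ub1 peaks are unscaled, so this cover says nothing of the amount of the mark. RYBP peaks covered 47.6% in Parental −OHT, 3.74% in I53S +OHT and 34.7% in WT +OHT cells. In MTF2 KO cells SUZ12 covered 100%, 23.0%, 13.2% and 99.7% and H3K27me3 77.9%, 5.91%, 8.89% and 73.4%.

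At Bmi1 (chr2:18677018-18686629, plus strand) RING1B had 5 peaks in Parental −OHT cells. One lay just inside the start, 58 to 1777 bp from it (score 44.3), one upstream, −1992 to −720 bp (score 21.2), and 2 others, the higher with a score of 25.8, lay further into the gene. The highest lay past the end of the gene, 10273 to 14594 bp from the start (chr2:18687291-18691612, 4322 bp, score 175), in the 7403 bp before Spag6. In WT +OHT cells 2 of these sites were listed, at 116 to 1717 bp (score 26.7) and past the end (score 142). Neither Parental +OHT nor I53S +OHT cells had a RING1B peak within 2.5 kb of Bmi1. Within the 4322 bp past the gene RING1B covered 100% (by definition, as its own peak), 0%, 11.4% and 75.3% in Parental −OHT, Parental +OHT, I53S +OHT and WT +OHT cells, and CBX7 100%, 0%, 0% and 99.2%. PCGF6 covered 50.1%, 49.1%, 50.7% and 63.7%, with scores of 84.1, 143, 113 and 144. H3K27me3 covered 100%, 100%, 93.9% and 100%. PCGF6 peaks were thus listed at this downstream site in all 4 conditions. Whether the downstream peaks belong to Bmi1 or to Spag6 cannot be told apart here.

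The start of Cbx2 carried a RING1B peak of its own in Parental −OHT cells, chr11:119021648-119024304 (2657 bp, score 33.6). In WT +OHT cells 2 peaks were listed, with a highest score of 14.5. In I53S +OHT cells the peak lay in the gene body, 1950 to 5797 bp after the start (3848 bp, score 12.6), the 10th longest of the 1287 of that list. The RING1B peak at the start of Pcgf2 (chr11:97688823-97700497, minus strand) was near the lowest score, at 14.3 in Parental −OHT cells. Of the WT +OHT peaks of Pcgf2 the highest scored 12.8. Pcgf2 carried PCGF6 peaks with scores of 30.8, 28.6, 15.0 and 32.8 and H2AK119ub1 peaks of 25.4, 30.3, 17.1 and 22.4 in Parental −OHT, Parental +OHT, I53S +OHT and WT +OHT cells. Pcgf2, which fell in Parental cells, was thus listed for PCGF6 and H2AK119ub1 in every condition. The H2AK119ub1 peaks are unscaled, and the paper reports loss of the mark with OHT in Parental and I53S cells.

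The members without RING1B peaks are described next. Cbx7 (chr15:79915807-79971119, minus strand) had a PCGF6 peak in all 4 conditions, with scores of 39.1, 34.7, 20.7 and 23.2, inside an intron and 5012 to 5096 bp from the nearest transcript start. The 4 peaks shared 403 bp (chr15:79938995-79939397). The middle 300 bases (chr15:79939047-79939346, plus strand of mm10) are printed because this was the site of Cbx7 that was listed in every condition, with CG dinucleotides, of which there are 11, in capitals.
Cbx7 intron: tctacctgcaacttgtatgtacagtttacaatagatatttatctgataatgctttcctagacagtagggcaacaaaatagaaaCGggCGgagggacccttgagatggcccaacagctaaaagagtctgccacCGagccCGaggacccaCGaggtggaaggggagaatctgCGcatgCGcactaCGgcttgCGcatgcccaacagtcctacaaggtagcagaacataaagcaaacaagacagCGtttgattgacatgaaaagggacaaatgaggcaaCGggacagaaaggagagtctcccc

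No CACGTG was found in the 403 bp, which is a statement on these letters alone. Of the 7880 PCGF6 peaks of Parental −OHT cells, 18.02% held it within 300 bases around their centre, against 7.15% of RefSeq promoter windows of that length. Phc1 (chr6:122317731-122340561, minus strand) had 1 peak in the 12 antibodies' lists, of H2AK119ub1 in Parental +OHT cells, at a score of 14.9. Cbx6 (chr15:79823896-79834688, minus strand) had H2AK119ub1 peaks inside the gene at 10.9, 15.01 and 25.1 in Parental −OHT, Parental +OHT and WT +OHT cells, and none in I53S +OHT cells. The gene with the largest fall therefore carried the fewest peaks of the 9.

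Phc2 (chr4:128654702-128752881, plus strand) has several starts, and its peaks lay both at the first and far inside the gene. Of its H2AK119ub1 and H3K27me3 peaks in Parental −OHT cells, 7 and 5 in number, 1 each lay at the first start. SUZ12 there scored 41.8, 11.4, 16.1 and 15.7 in Parental −OHT, Parental +OHT, I53S +OHT and WT +OHT cells, and the JARID2 peak of 64.3 in Parental −OHT cells had no counterpart in the Parental +OHT list. CBX7 scored 10.2 in Parental −OHT cells, close to the lowest score listed, and no RING1B peak was called in any condition. Phc3 (chr3:30899371-30969415, minus strand) had SUZ12 peaks at its start of 11.8 in Parental −OHT, 18.9 in Parental +OHT and 13.4 in I53S +OHT cells, and none in WT +OHT cells. Phc2 thus rose while carrying PRC2 peaks at its first start and low ones of canonical PRC1 at most.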

How the data were processed

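RNA was measured in 16 SMART-seq2 libraries (unstranded; 2 per group) and chromatin in 69 ChIP-seq peak lists. Per the labels and methods, the authors aligned RNA reads with STAR 2.7, removed duplicates and counted them with featureCounts on GENCODE genes; the deposited values are raw counts. ChIP reads were aligned to mm10 with Bowtie 1.2.2 and peaks called per library with MACS2 2.1.1; the score the authors deposited is −log10 of the p-value. Samples were grouped by the labels, and 1 list whose condition the labels do not give entered no comparison. Some MTF2 and JARID2 lists have titles that read 48 h, although their treatment label gives 72 h of OHT. The paper reports both antibodies at 48 h and 72 h, so these were taken as 48 h lists. They are not compared here.

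The 12 libraries of the RING1B lines were fitted together (18154 genes after filterByExpr, TMM scaling; biological coefficient of variation 0.181) and the 4 EED fl/fl libraries apart (25170 genes; 0.251) with edgeR 4.0.16 in R 4.3.3. P-values were adjusted by Benjamini-Hochberg over all genes of a fit. RPKM were CPM per kb of merged GENCODE exons. Peaks were matched in Python 3.11.15. Depth was 6957248 to 12743460 reads. Replicates differed beyond sampling noise (chi-square per degree of freedom 6.48 to 25.7), which does not show that they were separate cultures. Each library was counted as 1 sample. The test was tried on simulated data first.

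The members and lists were chosen with earlier results of these data known. Named genes were the 9 members, Rnf2 and Eed, the at most 6 genes of the other Polycomb lists with the lowest FDR among those past an FDR of 0.05 and a log2 fold change of 1 in Parental cells, and the 2 genes most alike to each member past a log2 fold change of 1.5; the genes that fell are named to account for their counts, chosen after their values were seen. Alternatives were DESeq2 1.42.0, other filters, scalings, thresholds and peak rules, a replicate block and leaving out each library. One gene of the lists is not reported here.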

Additional observations from a re-analysis of the deposited data

Results flagged for a closer look

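The OHT effect differed between WT and Parental cells, by an interaction test, for 2 of the 9 members. For Cbx8 the difference in log2 fold change was −2.98 (WT minus Parental, SE 0.65, edgeR adjusted p = 0.0189), with log2 fold changes of 4.55 in Parental and 1.58 in WT cells, and both +OHT libraries higher than both −OHT libraries in each line. For Phc1 it was 1.56 (SE 0.24, edgeR adjusted p = 0.00147), with log2 fold changes of −1.86 and −0.31.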

How the results depend on the processing

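At a log2 fold change of at least 1.5 and an FDR under 0.05 by edgeR, 3 members were called in Parental cells, 1 in I53S, 0 in WT, 1 for WT against Parental with OHT, 1 for I53S against WT with OHT and 2 for the difference in OHT effect between WT and Parental cells. By FDR alone these were 7 in Parental, 5 in I53S, 4 for WT against Parental and 3 for I53S against WT; at a log2 fold change of 1 they were 4 in I53S and 3 for WT against Parental. In WT cells DESeq2 and the fit with no filter each called 1 (Cbx8). Scaling by library totals, chosen after seeing the data, gave 2 in I53S and 1 for the difference, and moved the median log2 fold change of all genes in Parental cells from 0.03 to 0.23. A minimum of 10 counts in every library, which drops Cbx8, gave 0 in I53S, 0 for both comparisons with OHT and 0 for the difference. Leaving out 1 library at a time gave 1 to 3 in I53S, 0 to 1 in WT, 0 to 1 for I53S against WT with OHT and 0 to 2 for the difference. The cause of the other moves was not tested. None of 1374 alternative log2 fold changes reversed a call. Over all genes, the edgeR count past the FDR threshold went from 2 in EED fl/fl cells to 54 by DESeq2, 95 with library totals, 2696 with the replicate block and 23 to 279 with 1 library left out, from 402 to 813 in WT cells with no filter, from 376 to 642 for the difference by DESeq2 and, with 10 counts required and so fewer genes tested, from 6228 to 3685 in Parental cells. By DESeq2 the differences in OHT effect of Phc2 (WT minus Parental, log2 −1.37, adjusted p = 0.0324) and Phc1 (I53S minus WT, −0.84, adjusted p = 0.0375) also passed.

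The replicate numbers pair the libraries by number alone (correlation of same-numbered deviations 0.101 in Parental, 0.0627 in WT, 0.198 in I53S and 0.459 in EED fl/fl cells). With a replicate block, Cbx7 (log2 −0.46, edgeR adjusted p = 0.00449) and Phc1 (−0.52, adjusted p = 0.00109) passed in EED fl/fl cells, Cbx2 (0.62, adjusted p = 0.0461) and Cbx6 (−0.51, adjusted p = 0.0454) in I53S cells, Pcgf2 (0.54, adjusted p = 0.0423) for WT against Parental with OHT, and Phc2 (−1.36, adjusted p = 0.0449) for the difference; the block changed no other call.

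Of the peak counts, a score of at least 20 left RING1B at 2 members in WT +OHT and 0 in I53S +OHT cells, PCGF2 at 1 in I53S, RYBP at 1 in Parental −OHT, 0 in WT and 0 in I53S, PCGF6 at 3 in Parental +OHT and 2 in I53S, H2AK119ub1 at 4 and 2, SUZ12 at 3 in Parental +OHT, 3 in WT and 3 in I53S, MTF2 at 3 in Parental +OHT and 2 in I53S, JARID2 at 1 in I53S, EPOP at 3 in WT and 2 in I53S, and H3K27me3 at 3 in Parental +OHT cells. In MTF2 KO cells it left SUZ12 at 1 in Parental +OHT and 0 in I53S, and H3K27me3 at 2 in Parental −OHT, 0 in Parental +OHT, 1 in WT and 0 in I53S. Counting only peaks within 2.5 kb of a transcript start gave 1 for RYBP in WT, 0 for RYBP in I53S, 1 for PCGF6 and 1 for JARID2 in I53S, 1 for SUZ12 in I53S MTF2 KO and 0 for H3K27me3 in Parental MTF2 KO +OHT cells. Requiring the peak centre in the region gave 1 for RYBP in WT, 0 for RYBP and 1 for JARID2 in I53S, and 1 for H3K27me3 in I53S MTF2 KO cells. The other JARID2 library of I53S +OHT cells had 1. The remaining 133 alternative peak counts stayed within 1.5 times. With 1 list per condition, depth and counting error limit all of these.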

Other observations

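One further peak list, whose group the labels do not give, held 61 peaks, of which 0 lay within 2.5 kb of a member.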
